A study of Mus musculus with 10 samples.

Results

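The genes described here encode the subunits of the mitochondrial respiratory chain that lie in the nuclear genome. They were taken as every gene symbol of the count table that begins with Ndufa, Ndufb, Ndufc, Ndufs, Ndufv, Uqcr, Atp5 or Cox4 to Cox8, or is Sdha, Sdhb, Sdhc or Sdhd, and that has a mean of at least 10 counts over the 10 livers. Of 24537 symbols in the table, 93 matched and 87 reached that mean. By their known role, 36 encode subunits of complex I, 4 of complex II, 8 of complex III, 12 of complex IV and 15 of complex V. The pattern also caught 12 genes that are not subunits of a complex in the strict sense, mostly assembly factors (Ndufaf1 to Ndufaf8) and the supercomplex factor Cox7a2l. They are kept apart below as associated factors.

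The respiratory chain sits in the inner mitochondrial membrane. Complexes I and II take electrons from NADH and succinate, complex III passes them to cytochrome c and complex IV hands them to oxygen. Complexes I, III and IV pump protons, and complex V, the ATP synthase, uses the proton gradient to make ATP. Every complex except complex II also holds subunits encoded by mitochondrial DNA, and hepatocytes, which are rich in mitochondria, depend on the chain for urea synthesis, gluconeogenesis and fatty acid oxidation.

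RNA was measured in whole livers of male mice that had all received an adeno-associated virus (AAV8) carrying saCas9, a small Cas9 nuclease, under TBG, a hepatocyte promoter, with a guide RNA. The labels give 3 young mice of genotype Rosa26-KO, which got the virus at 7 months and were sampled at 9 months, and 3 old Rosa26-KO mice, which got it at 23 months and were sampled at 25 months. Another 4 old mice with the same ages had a guide against Cd44, a cell surface receptor, 2 of them of genotype Cd44-KO_g2 and 2 of genotype Cd44-KO_g4. Rosa26 is a locus used as a neutral target, so the Rosa26 livers are the controls here, and they carry the virus and the nuclease too. The labels do not say whether livers of a group came from separate litters or cages, so p-values measure only the spread between these samples.

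Levels below are CPM, a gene's counts relative to the library's total, scaled with the trimmed mean of M values (TMM), and fold changes come from edgeR's quasi-likelihood test on the counts. Adjustment followed Benjamini and Hochberg across all genes tested, and a gene was called at an adjusted p under 0.05. Total counts lay between 15821198 and 21710228 per liver, and the 87 genes together took 0.93% to 1.45% of them. Cd44 had 16.6, 11.1 and 10.1 CPM in the young livers, 14.2, 29.99 and 25.9 CPM in the old controls, 17.6 and 13.1 CPM in the livers labelled g2 and 18.9 and 29.01 CPM in those labelled g4. Old knockout against old control gave a log2 change of -0.25 ± 0.30 (SE) for Cd44, with an edgeR adjusted p of 0.896. The Cd44 count of whole liver therefore does not separate the livers labelled Cd44-KO from the controls. The hepatocyte markers summed to 81968 CPM or more in every liver. None of the 13 genes of mitochondrial DNA was among the table's symbols, and they are not analysed here.

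The 3 old control livers differed from one another, and each result that uses them has to be read with this in view. For the 87 genes, the median SD of log2 CPM between livers was 0.36 among the old controls, 0.11 among the young livers and 0.11 among the 4 knockout livers, against 0.32, 0.17 and 0.19 over all genes tested. Old control replicate 1 was the highest of the 3 old controls for 71 of the 87 genes (81.6%), against 37.0% of all genes tested. Old control replicate 3 was the lowest for 69 of them (79.3%), against 40.7% of all genes. The library of replicate 3 carries a name that does not continue the numbering of the other 9. Over all 10 livers, replicate 3 was the lowest for 64 of the 87 genes, against 16.5% of all genes. Replicate 1 was the highest for 42, against 19.2% of all genes.

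The summed levels of complexes I, III and IV show the same split. Complex I summed to 3247, 3616 and 3285 CPM in the young livers, 3691, 2683 and 2344 CPM in the old controls, 3212 and 3382 CPM with guide g2 and 3275 and 3160 CPM with guide g4. As a percentage of the young mean, complex III was at 106.1%, 78.0% and 68.6% in old control replicates 1 to 3, and complex IV at 116.4%, 78.6% and 62.3%. The sum of complex II ran in the other order, at 67.9%, 75.1% and 87.8%. Of its 4 genes only 1, Sdha, had replicate 3 highest of the old controls, at 222, 296 and 453 CPM. Sdhb ran the opposite way, at 163, 144 and 125 CPM. The sum of complex V was at 87.2%, 76.9% and 79.8%, below all 3 young livers in each of the old controls, as that of complex II was. Sums weigh abundant genes most. On the log2 scale, 10 of the 15 complex V genes lay above the young mean in old control replicate 1. In replicates 2 and 3 all 15 lay below it. The 4 knockout livers lay between 96.6% and 105.0% of the young mean for complex IV and between 71.3% and 92.7% for complex II.

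**Figure D1:**
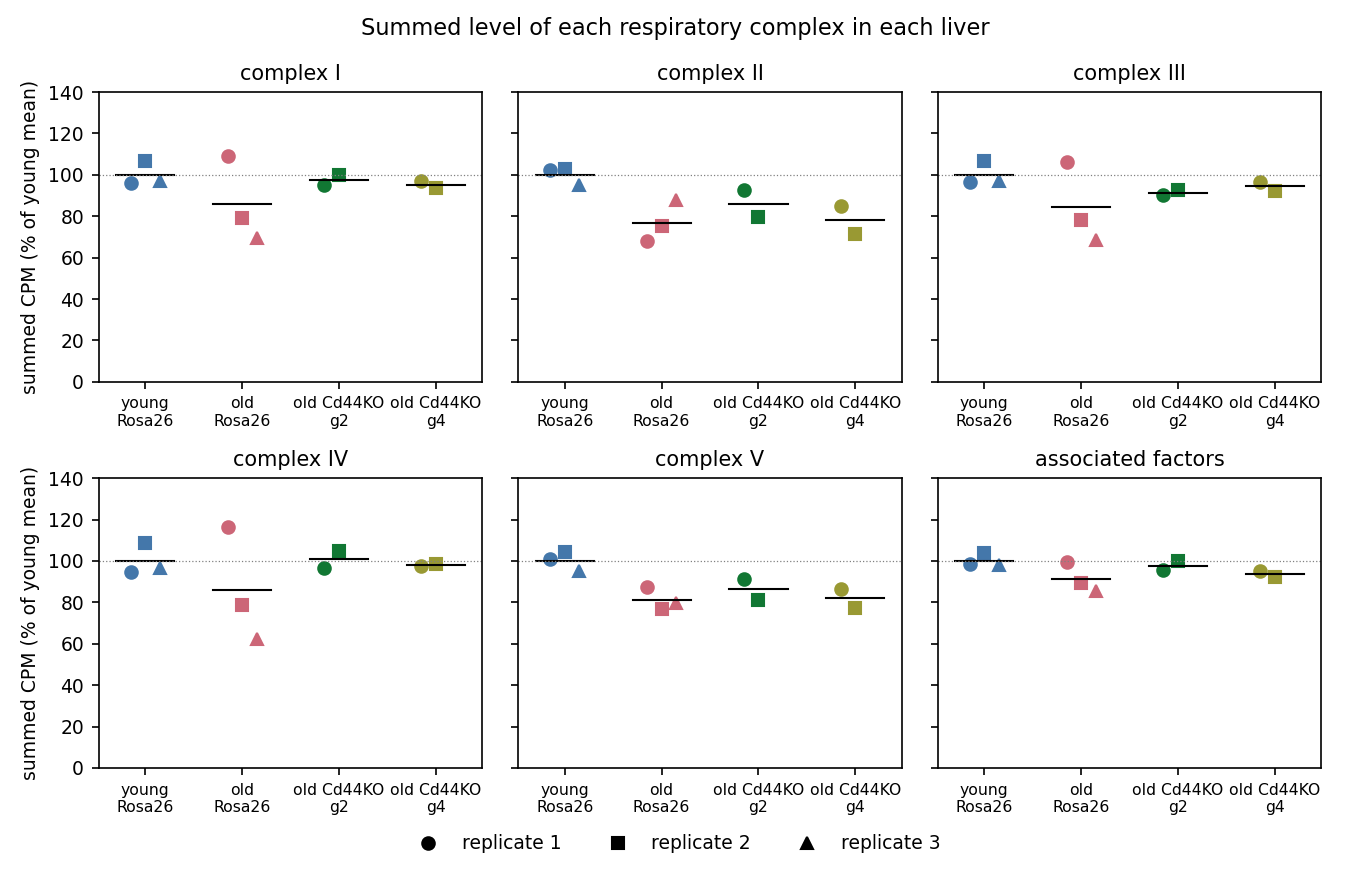
Summed CPM of the genes of each complex and of the associated factors in each liver, as a percentage of the mean of the 3 young livers (vertical axis), by group (horizontal axis); symbols mark replicates and black bars group means. The old controls spread from 62.3% to 116.4% for complex IV, and the knockout livers lie inside that spread.

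Old against young control livers address the effect of age. Of the 87 genes, 8 fell and 0 rose in edgeR's test, where 22.8% of the 13909 genes tested were called, 8.66% lower and 14.1% higher. The share of members that fell, 9.20%, is thus close to that of all genes. The 8 were 3 complex I subunits (Ndufa10, Ndufv1, Ndufab1), both core proteins of complex III (Uqcrc1, Uqcrc2), 1 complex V subunit (Atp5f1) and 2 complex I assembly factors (Ndufaf1, Ndufaf4). No gene of complex II or IV was called. The median log2 change was -0.20 over the 87 genes and 0.04 over all genes, and 76 of the 87 had a negative value.

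The count depended on the scaling and on single livers, and the sign of the median on the scaling. Scaled to total counts alone, a setting chosen after seeing the data, the median over all genes was 0.34 and that of the 87 genes 0.12, with 1 gene lower (Ndufaf4) and 2 higher (Cox7a2l, Atp5sl), where 2.55% of all genes were lower and 27.8% higher. The members' median lay below that of all genes by 0.24 with TMM, 0.24 with upper quartile factors and 0.23 with total counts. A change of scaling shifts all genes by nearly the same amount, so this difference could hardly change and is no check of the result. Leaving out 1 liver moved the members' median between -0.43, without old control replicate 1, and -0.07, without old control replicate 3, when 55 of the 87 genes had a negative value. The difference from all genes was then -0.43 and -0.11. Without old control replicate 1, 39 of the 87 genes fell, where 7.44% of all genes did. Without old control replicate 3, 13 fell, where 17% of all genes did, and 2 rose (Atp5sl, Ndufa4l2), where 20.8% of all genes did. The number that fell was 1 without old control replicate 2 (2.31% of all genes), 1 without young replicate 2 (1.08%), 2 without young replicate 1 (4.54%) and 3 without young replicate 3 (3.87%). Markers of other cell types moved with age too. The endothelial markers summed to 165 to 229 CPM in the young livers and 336 to 372 CPM in the old controls, with 6 of 8 higher. The macrophage markers summed to 127 to 164 CPM and 245 to 1001 CPM, with 6 of 8 higher. Higher too were 5 of 8 stellate cell, 4 of 6 B and plasma cell, 4 of 5 neutrophil, 3 of 7 T and NK cell and 3 of 6 erythroid markers. Of the erythroid markers 1 fell. Among the old controls replicate 2 had the highest macrophage (1001 CPM), neutrophil (298 CPM) and T and NK cell sums (48.7 CPM). The others had at most 427, 16.3 and 8.36 CPM. Of the 8 hepatocyte markers 3 fell, with sums of 100980 to 130090 CPM in the young livers and 81968 to 111190 CPM in the old controls. Their part in the result was not tested, and in whole liver fewer cells of a type and less RNA per cell cannot be told apart.

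**Figure D2:**
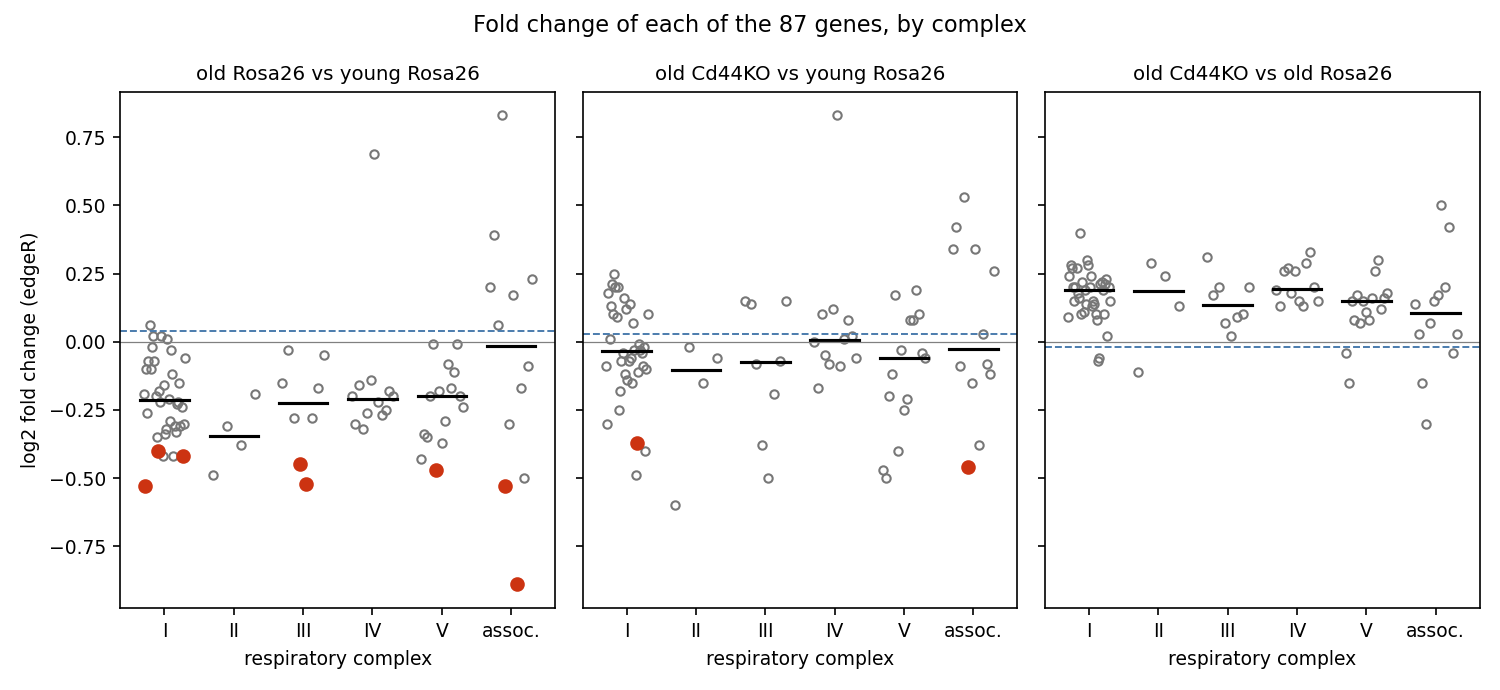
Log2 fold change (vertical axis) of each of the 87 genes by complex (horizontal axis; assoc., associated factors) in the age comparison, old knockout against young control and old knockout against old control. Filled red points passed edgeR's test, open points did not, black bars are class medians and the dashed line is the median of all genes tested. There are 8, 2 and 0 filled points in the 3 panels.

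In complex I, Ndufa10 (chromosome 1, 92439010 to 92473860, GRCm38), an accessory subunit of the membrane arm, had 164, 173 and 152 CPM in the young livers and 104, 116 and 117 CPM in the old controls. The groups did not overlap, and its log2 change was -0.53 ± 0.13 (SE), with an edgeR adjusted p of 0.0184. Ndufv1 (chromosome 19, 4007384 to 4012806), which binds NADH at the entry of the chain, had 154, 156 and 144 CPM against 113, 107 and 120 CPM. The log2 change of Ndufv1 was -0.42 ± 0.13, with an edgeR adjusted p of 0.0406. Ndufab1 (chromosome 7, 122085403 to 122101886), the mitochondrial acyl carrier protein, had 71.9, 89.0 and 72.0 CPM against 66.6, 55.3 and 54.2 CPM. Its edgeR adjusted p was 0.0491 at a log2 change of -0.40 ± 0.13. All 3 old controls were below all 3 young livers for each of these genes.

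The other 33 complex I genes had log2 changes from -0.42 to 0.06 and none was called. Ndufs1, the largest iron-sulphur subunit, had 92.5, 90.4 and 84.4 CPM in the young livers and 55.9, 59.5 and 84.9 CPM in the old controls, so that replicate 3 alone lay among the young livers. For Ndufs1 the log2 change was -0.42 ± 0.18, with an edgeR adjusted p of 0.109. Ndufb3, an accessory subunit of the membrane arm, had 38.8, 41.2 and 43.2 CPM against 39.9, 28.4 and 23.5 CPM, where replicate 1 was the one among the young. Ndufa6, another accessory subunit, had 156, 166 and 156 CPM against 234, 146 and 104 CPM, with old controls both above and below every young liver. Ndufs1 and Ndufa6 thus put old control replicates 1 and 3 in opposite order.

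Complex II, succinate dehydrogenase, had 0 of 4 genes called, while for 3 of the 4 the old controls lay below every young liver; groups did not overlap in this direction for 18% of all genes. Sdha, the flavoprotein that oxidises succinate, was the exception. It had 470, 449 and 444 CPM in the young livers and 222, 296 and 453 CPM in the old controls, and its log2 change was -0.49 ± 0.24, with an edgeR adjusted p of 0.153. Sdhc, which anchors the enzyme in the membrane, had 225, 254 and 210.1 CPM against 157, 191 and 180.4 CPM and the smallest edgeR adjusted p of the class, 0.0618. Sdhb, the iron-sulphur subunit, had 180, 189 and 168 CPM against 163, 144 and 125 CPM, and it was not called at a log2 change of -0.31 ± 0.15. Without old control replicate 3, 2 of the 4 genes fell, where 17.0% of all genes did. With total counts alone the median of the class was -0.03.

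In complex III, Uqcrc1 (chromosome 9, 108936633 to 108949623) and Uqcrc2 (chromosome 7, 120635176 to 120659524) encode the core proteins on the matrix side. Uqcrc1 had 264, 277 and 245 CPM in the young livers and 195, 192 and 191 CPM in the old controls, the closest agreement between old controls among the 8 genes that fell. This amounted to a log2 change of -0.45 ± 0.14, with an edgeR adjusted p of 0.0376. Uqcrc2 had 240, 259 and 219 CPM against 141, 167 and 193 CPM. It changed by -0.52 ± 0.17 on the log2 scale, with an edgeR adjusted p of 0.0494. Uqcrfs1, the Rieske iron-sulphur protein of the catalytic core, had 202, 252 and 201 CPM against 221, 168 and 149 CPM and was not called (log2 change -0.28 ± 0.16). The small subunit Uqcrq had 292, 325 and 344 CPM against 462, 262 and 203 CPM, and the small subunit Uqcr10 90.9, 97.2 and 102 CPM against 124, 78.4 and 58.9 CPM. For both small subunits old control replicate 1 was above every young liver and the other 2 old controls below them.

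All 12 complex IV genes had old control replicate 1 as the highest and replicate 3 as the lowest of the old controls, and none was called. Cox4i1, a nuclear subunit that binds ATP and ADP, had 378, 430 and 402 CPM in the young livers and 492, 322 and 242 CPM in the old controls. Cox5a had 176, 190 and 168 CPM against 180, 136 and 118 CPM. With a log2 change of -0.30 ± 0.15 it had the smallest edgeR adjusted p of the class, 0.172. Cox6c had 196, 233 and 216 CPM against 301, 173 and 112 CPM, a spread among the old controls that covers the young livers on both sides. The class median was -0.21 with all livers. Without old control replicate 1 it was -0.49, when 10 of the 12 genes fell (7.44% of all genes). Without replicate 3 it was -0.02, when none fell (17.0% of all genes). The call on complex IV thus turns on which old control is left out.

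Complex IV has subunits with tissue forms, and the liver forms made up nearly all of its RNA here. Cox6a1, Cox7a2 and Cox8a are the general forms and Cox6a2, Cox7a1 and Cox8b the heart and skeletal muscle forms. Cox6a2 had at most 12 counts in any liver and Cox8b at most 4, so both fell short of the mean of 10 counts, as did Cox4i2, the lung and hypoxia form (at most 12), Cox6b2 (at most 11) and Cox7b2 and Cox8c (0 in all). Cox7a1 passed, with 0.857, 1.25 and 0.950 CPM in the young livers, 2.75, 1.23 and 0.954 CPM in the old controls, 1.37 and 1.46 CPM with guide g2 and 2.03 and 2.40 CPM with guide g4. Its log2 change with age was 0.69 ± 0.43, with an edgeR adjusted p of 0.259. Cox6a1 had 192, 237 and 213 CPM in the young livers and 231, 153 and 131 CPM in the old controls, Cox7a2 130, 168 and 136 CPM against 171, 112 and 87.5 CPM, and Cox8a 185, 193 and 182 CPM against 210, 165 and 120 CPM. Their log2 changes were -0.32 ± 0.19, -0.22 ± 0.21 and -0.18 ± 0.18, none of them called.

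In complex V, Atp5f1 (chromosome 3, 105942698 to 105960099), the b subunit of the peripheral stalk, had 360.4, 395 and 329 CPM in the young livers and 231, 267 and 284 CPM in the old controls. Its log2 change was -0.47 ± 0.15, with an edgeR adjusted p of 0.0395. The catalytic F1 beta subunit Atp5b had 1067, 999 and 1000.2 CPM against 657, 745 and 1017 CPM, and was not called (log2 change -0.34 ± 0.20). The F1 alpha subunit Atp5a1 had 959.8, 933 and 863 CPM against 564, 665 and 820.3 CPM, with no overlap between the groups, a log2 change of -0.43 ± 0.19 and an edgeR adjusted p of 0.120. Atp5k, a small membrane subunit, had 59.7, 68.6 and 63.0 CPM against 90.1, 56.0 and 43.3 CPM. The long F1 subunits and the small membrane subunit put the old controls in opposite order. All 15 genes had a negative log2 change, from -0.47 to -0.01, while with total counts alone the median of the class was 0.12.

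Among the associated factors, Ndufaf4 (chromosome 4, 24898083 to 24905001), which helps to assemble the peripheral arm of complex I, had 35.7, 46.4 and 42.8 CPM in the young livers and 23.1, 21.0 and 23.6 CPM in the old controls. Its log2 change was -0.89 ± 0.16, the largest fall among the 87 genes (edgeR adjusted p 0.00877). It was also the one gene of the 8 that stayed called in each of 15 other settings, with log2 changes from -0.99 to -0.58, although it does not reach an absolute log2 change of 1. Ndufaf1 (chromosome 2, 119655446 to 119662827), a factor for the membrane arm, had 35.7, 39.0 and 31.8 CPM against 22.2, 23.9 and 27.7 CPM. It changed by -0.53 ± 0.13 on the log2 scale, with an edgeR adjusted p of 0.0165. It was called in 11 of the 15 settings, Ndufa10 in 10, Uqcrc1 and Atp5f1 in 6 each, Ndufv1 in 5, Ndufab1 in 4 and Uqcrc2 in 3. The log2 change was negative in all 15 for each of the 8.

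Cox7a2l, which joins complexes III and IV into supercomplexes, had 74.8, 67.0 and 69.4 CPM in the young livers and 74.1, 74.1 and 72.4 CPM in the old controls. It was not called with TMM and rose when total counts alone were used. Ndufa4l2, a homologue of Ndufa4 induced by hypoxia in other tissues, had 0.857, 1.65 and 0.950 CPM against 2.80, 2.37 and 0.954 CPM. It did not pass the test with all livers and did without old control replicate 3.

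**Figure D3:**
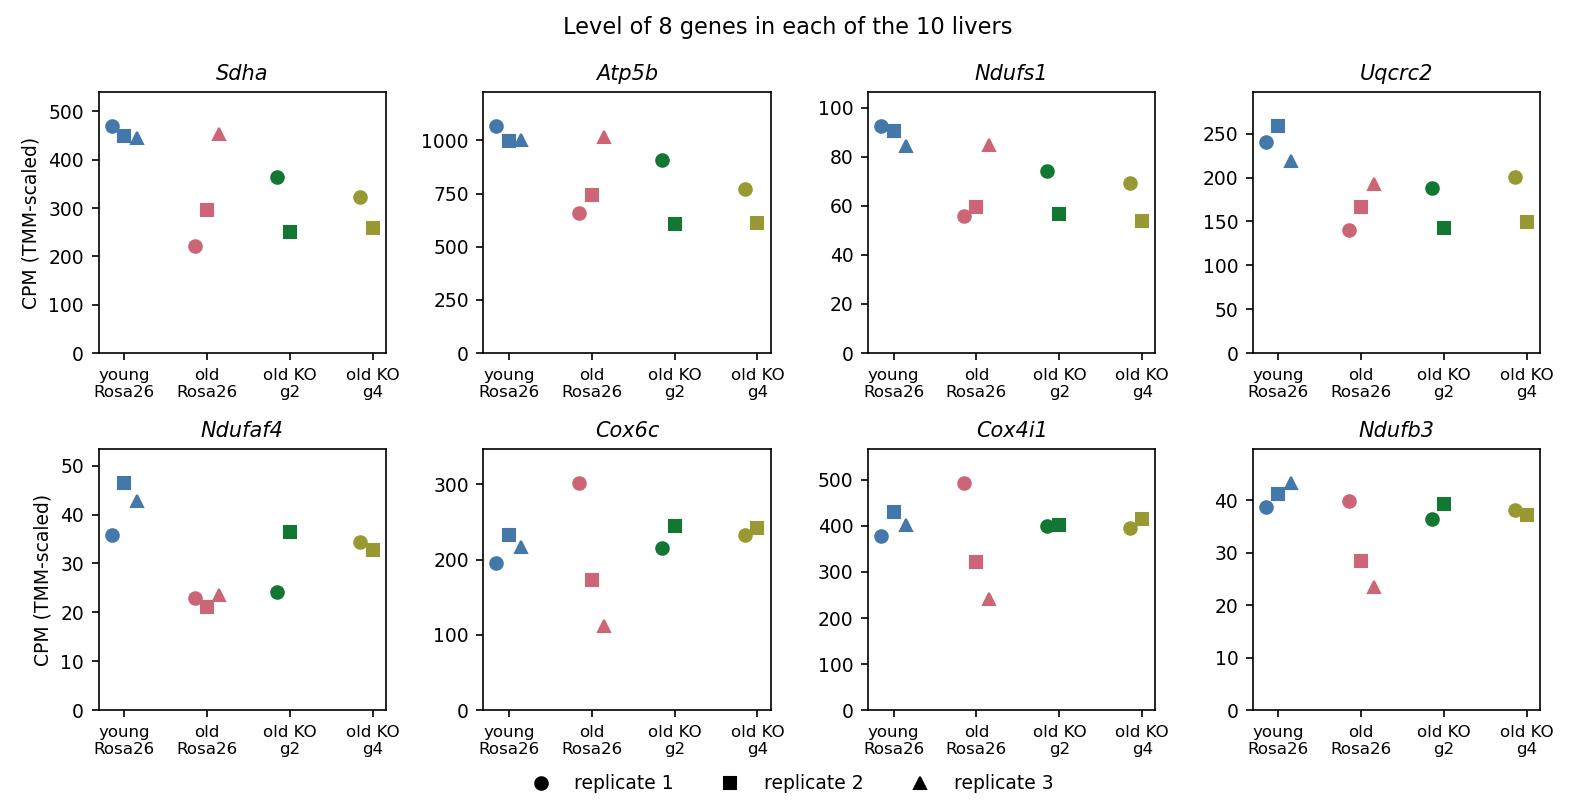
CPM (vertical axis, from 0) of 8 genes in each of the 10 livers by group (horizontal axis; KO, Cd44-KO); symbols mark replicates. In the upper row old control replicate 3 (triangle) is the highest old control, while Cox6c, Cox4i1 and Ndufb3 in the lower row have replicate 1 highest; for Ndufaf4 all 3 old controls lie between 21.0 and 23.6 CPM.

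The order of the livers went with transcript length, and also with GC content. Each gene was given the length of 1 transcript, the one of median length among its transcripts paired with a RefSeq mRNA. Other transcripts of a gene can differ in length, so the values below rest on this choice. By it the 87 genes have 315 to 3632 bases, with a median of 758 bases. Across the 87 genes, the deviation of a gene's log2 CPM in a liver from its mean over livers was set against the log2 of transcript length. Pearson's r was -0.73 in old control replicate 1, 0.12 in replicate 2 and 0.68 in replicate 3. It was 0.51, 0.36 and 0.42 in the young livers, 0.23 and -0.51 with guide g2 and -0.15 and -0.62 with guide g4. Over 13787 genes with an annotated length the values were -0.09, 0.01 and 0.28 in the old controls. With GC content in place of length, r among the 87 genes was 0.43, 0.23 and -0.33 in old control replicates 1 to 3. Over the 13787 genes it was 0.22, 0.09 and -0.15. These r values describe genes within 1 library, which share its depth and base composition, and the genes are not independent.

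**Figure D4:**
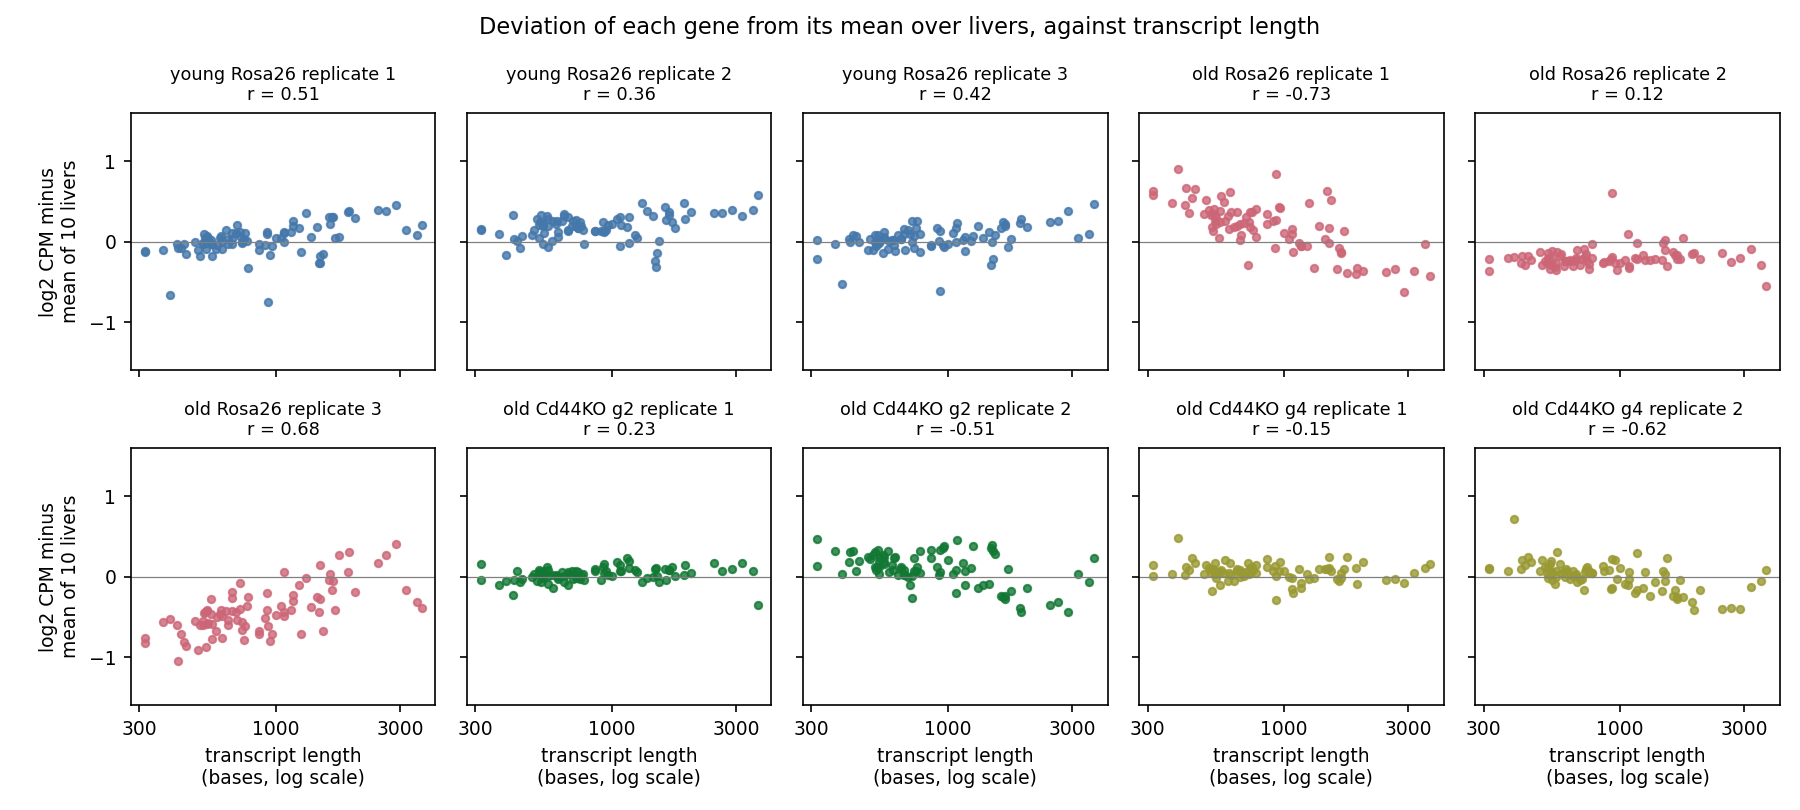
Log2 CPM of each of the 87 genes in a liver minus its mean over the 10 livers (vertical axis) against transcript length in bases (horizontal axis, log scale), 1 panel per liver, with Pearson's r across genes. In old control replicate 1 short transcripts lie mostly above 0 and long ones on both sides of it (r = -0.73). In replicate 3 short transcripts lie below 0 (r = 0.68).

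In old control replicate 1 the median deviation was 0.34 for the 55 genes with transcripts under 1000 bases and -0.06 for the 32 longer ones, and in replicate 3 it was -0.56 and -0.21. Over all genes it was 0.21 and 0.00 in replicate 1 and -0.34 and 0.03 in replicate 3. All 8 genes that fell with age belong to the 32 longer ones, of which 25.0% were called lower against 8.90% of all genes of that length. Of the 55 shorter ones none was, against 6.96% of all genes under 1000 bases. The cut at 1000 bases was chosen with these values known. After a correction for GC content and transcript length in each library, 25 of the 87 genes fell, the 8 among them, where 16.8% of all genes did. The correction did not remove the relation to length among the 87 genes. Pearson's r between the log2 change with age and log2 length was -0.42 before it and -0.43 after it. With GC content r was 0.36 before the correction and 0.06 after it. The median log2 change was then -0.30 over the 87 genes and -0.10 over all genes. The 25 comprised 11 genes of complex I, 3 of complex II, 2 of complex III, 2 of complex IV, 4 of complex V and 3 associated factors. Whether RNA quality or library preparation differed between the livers was not tested.

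The question of the knockout is whether loss of Cd44 in hepatocytes alters the old liver. No respiratory chain gene passed the test between the 4 old livers labelled Cd44-KO and the 3 old controls: 0 of 87 were called, where 0% of the 13909 genes tested were called in edgeR. At an unadjusted p under 0.05 there were 2 of the 87 (Ndufaf4 and Ndufaf6) and 6.59% of all genes, and DESeq2 also called 0 of the 87, with 8 genes in all. The median log2 change was 0.16 over the 87 genes and -0.02 over all genes, with 79 positive values. It was 0.39 without old control replicate 1 and 0.05 without old control replicate 3. Without replicate 1, 59 of the 87 had an edgeR unadjusted p under 0.05, against 18% of all genes, and none an adjusted p below 0.15. The age comparison uses the same 3 old controls on its other side, so its median and the one here are not independent. The median log2 change of cell type markers was -2.49 for neutrophils, -1.07 for macrophages and -0.48 for endothelium. For hepatocytes it was -0.05 and for B and plasma cells 0.5, and none of these markers was called. Their part in the result was not tested.

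By complex, the median log2 change was 0.19 for complex I, 0.18 for complex II, 0.13 for complex III, 0.20 for complex IV, 0.15 for complex V and 0.10 for the associated factors. The 4 knockout livers lay within the range of the 3 old controls for 56 of the 87 genes (64.4%), among them 10 of 12 in complex IV and 25 of 36 in complex I; over all genes tested the share was 35.7%. Cox4i1 had 398 and 402 CPM with guide g2 and 394 and 414 CPM with guide g4, between old controls of 242 and 492 CPM. Ndufs1 had 74.3 and 56.8 CPM with guide g2 and 69.2 and 53.9 CPM with guide g4. Atp5b had 909.7 and 607 CPM with guide g2 and 769.5 and 614 CPM with guide g4, where the first liver of each guide is the higher.

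Ndufaf4 came nearest to a call. It had 24.3 and 36.4 CPM with guide g2 and 34.4 and 32.7 CPM with guide g4, above the 3 old controls at 21.0 to 23.6 CPM and mostly below the young livers. Its log2 change was 0.50 ± 0.15 (SE), with an edgeR unadjusted p of 0.00626 and an adjusted p of 0.744. This is 1 of 2 of the 87 genes whose knockout livers all lay above the old controls, where groups did not overlap in that direction for 2.84% of all genes. The genes with the smallest p in the other classes were Ndufa8 (log2 change 0.40 ± 0.19), Sdhb (0.29 ± 0.14), Uqcr10 (0.31 ± 0.21), Cox7b (0.29 ± 0.15) and Atp5j (0.26 ± 0.16), with edgeR adjusted p from 0.748 to 0.798. For 86 of the 87 genes a 95% interval from the SE and the normal distribution lay between -1 and 1. With so few livers such an interval is too narrow, and it does not show that the groups are alike.

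Old knockout livers were also set against young controls, a comparison that shares the young livers with the age comparison and the knockout livers with the preceding one. Here 2 of the 87 genes fell and 0 rose, where 11.6% of all genes were called, 4.97% lower and 6.64% higher. Ndufaf1 had 26.6 and 25.2 CPM with guide g2 and 27.5 and 23.6 CPM with guide g4, against 31.8 to 39.0 CPM in the young livers, a log2 change of -0.46 ± 0.12 (SE) and an edgeR adjusted p of 0.0339. Markers of cell types moved in this comparison too: 3 of 8 hepatocyte markers fell, with sums of 89094 to 92063 CPM in the knockout livers, while 4 of 6 B and plasma cell, 3 of 7 T and NK cell, 2 of 8 endothelial and 2 of 8 stellate cell markers rose. Their part in the result was not tested.

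The median log2 change of the 87 genes was -0.04, against 0.03 for all genes, and its sign was not fixed: it was 0.07 with upper quartile factors, 0.28 with total counts alone, which put the median of all genes at 0.35, and 0.02 without young replicate 2. The knockout livers lay below every young liver for 15 of the 87 genes, against 18.8% of all genes, and above for 5, against 21.1%. Sdha had 364 and 251 CPM with guide g2 and 323 and 259 CPM with guide g4, all below the young livers at 444 to 470 CPM, a log2 change of -0.60 ± 0.22 and an edgeR adjusted p of 0.0892. Uqcrc2 had a log2 change of -0.50 ± 0.16 and Atp5f1 of -0.40 ± 0.13, neither of them called. The call of Ndufaf1 did not hold without any 1 of the young livers, without replicate 2 of guide g4 or without either replicate of guide g2, and DESeq2 called 10 of the 87 genes lower, where it called 9.66% of all genes lower.

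The labels name 2 guides against Cd44, and no respiratory chain gene passed the test between them: 0 of 87 were called in guide g4 against g2, where 0.0212% of the 14153 genes tested were, and none had an unadjusted p under 0.05, against 4.4% of all genes. The largest positive log2 change was that of Cox7a1, at 0.65 ± 0.48, and the most negative that of Ndufaf6, at -0.34 ± 0.20, with 11.96 and 15.6 CPM in the g2 livers and 9.88 and 11.8 CPM in the g4 livers. The 4 complex II genes were all lower with guide g4, with a median log2 change of -0.14. The smallest p of the other classes belonged to Ndufa12 (-0.21 ± 0.19), Sdhb (-0.24 ± 0.17), Uqcr11 (0.23 ± 0.33) and Atp5c1 (-0.21 ± 0.15). For 85 of the 87 genes the 95% interval from the SE and the normal distribution lay between -1 and 1, and it is too narrow here as well.

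Taken 1 guide at a time against the old controls, 0 of 87 genes were called with guide g2, where 0.0495% of all genes were, and 0 of 87 with guide g4, where 0% were. At an unadjusted p under 0.05 there were 3 and 1 of the 87, against 7.12% and 3.91% of all genes. The median log2 changes were 0.18 and 0.15, and both comparisons use the same 3 old controls. Without old control replicate 1 they were 0.42 and 0.35, and without old control replicate 3 they were 0.07 and 0.03. The g2 livers had 194 and 187 CPM of Sdhb and 50.1 and 55.4 CPM of Ndufa12, all above the old controls at 125 to 163 CPM and 37.1 to 47.5 CPM, and the g4 livers had 177 and 144 CPM and 47.9 and 43.4 CPM.

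The other genes of the pathway were examined as lists. They are to be read against the 8.66% of all genes that fell and the 14.1% that rose with age. With total counts alone these shares were 2.55% and 27.8%. Without old control replicates 1, 2 and 3 in turn, 7.44%, 2.31% and 17.0% of all genes fell. Without young replicates 1, 2 and 3 in turn, 4.54%, 1.08% and 3.87% did. Of 15 genes for cytochrome c, cytochrome c1, coenzyme Q synthesis and electron transfer flavoprotein, 2 fell with age and 0 rose. Cycs, which encodes cytochrome c, had 183, 234 and 178 CPM in the young livers and 129, 124 and 116 CPM in the old controls. Cycs changed by -0.69 ± 0.15 on the log2 scale, with an edgeR adjusted p of 0.0131. Coq5, a methyltransferase of coenzyme Q synthesis, changed by -0.54 ± 0.15. Without young replicate 2 no gene of the list fell, and with total counts alone 0 fell and 1 rose. Of 41 further assembly factors tested, 7 fell, most of all Cox18 by 0.72, Foxred1 by 0.57 and Sco1 by 0.49 on the log2 scale, and 1 rose. The latter was Atpif1, the inhibitor that blocks ATP hydrolysis by complex V, with 11.1, 12.7 and 10.45 CPM in the young livers, 20.4, 21.6 and 14.6 CPM in the old controls and a log2 change of 0.73 ± 0.17. With total counts alone the assembly factors had 0 lower and 2 higher. Among them 10 fell without old control replicate 3, 2 without young replicate 1, 1 without young replicate 3 and 0 without old control replicate 2 or young replicate 2.

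Of the 78 mitochondrial ribosomal proteins, which make the subunits encoded in mitochondrial DNA, 17 fell with age and 0 rose, where 8.66% of all genes fell, with a median log2 change of -0.28. Mrps18b fell by 0.72 and Mrpl38 by 0.69 on the log2 scale. With total counts alone 0 fell and 3 rose, with a median of 0.04. The number that fell was 22 without old control replicate 3 (17.0% of all genes), 21 without replicate 1 (7.44%) and 2 without replicate 2 (2.31%). Without young replicates 1, 2 and 3 it was 7, 1 and 6 (4.54%, 1.08% and 3.87%). Of 14 tricarboxylic acid cycle genes, 3 fell (Fh1 by 0.84, Mdh2 by 0.44 and Idh3b by 0.37 on the log2 scale) and Idh2 rose by 0.40. Of these 14 genes 9 fell without old control replicate 3, 1 without old control replicate 1, young replicate 1 or young replicate 3, and 0 without old control replicate 2 or young replicate 2, while with total counts alone 1 fell and 1 rose. Fh1, fumarate hydratase, had 241, 247 and 209 CPM in the young livers and 114, 120 and 157 CPM in the old controls.

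Among 16 regulators of mitochondrial genes, 3 fell and 2 rose with age, where 8.66% of all genes fell and 14.1% rose. Pprc1, a coactivator related to PGC-1, had 34.0, 39.0 and 39.0 CPM in the young livers and 15.1, 15.1 and 22.0 CPM in the old controls. It changed by -1.10 ± 0.20 on the log2 scale, with an edgeR adjusted p of 0.00915. Tfb2m and Polrmt, both needed to transcribe mitochondrial DNA, changed by -0.64 ± 0.12 and -0.37 ± 0.12. Ppargc1a, which encodes PGC-1 alpha, rose by 0.95 ± 0.26 and Esrrg by 1.57 ± 0.45, the latter from levels of 0.253 to 0.796 CPM. Nrf1, Gabpa, Esrra and Tfam, whose products bind nuclear or mitochondrial promoters of the chain, were not called, with log2 changes of -0.18, -0.10, 0.46 and -0.12. With total counts alone 4 of the 16 rose and 1 fell, where 27.8% of all genes rose and 2.55% fell. Leaving out 1 liver gave 2 to 4 lower and 0 to 3 higher. Of all genes 1.08% to 17.0% fell and 1.72% to 20.8% rose in those fits. The number higher was 0 without old control replicate 2 or young replicate 2. It was 1 without old control replicate 1, young replicate 1 or young replicate 3, and 3 without old control replicate 3. Between old knockout and old control livers no gene of any of these lists was called.

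The promoters of the members are shown because nuclear subunit genes are known to share sites for the factors NRF1, GABP (an ETS factor) and YY1. RefSeq promoters on GRCm38.p6, from 250 bases before to 50 bases after the start, were matched for 72 of the 87 genes. On either strand, the NRF1 core, as in capitals in Ndufaf4 but with any base at the sixth position, was in the promoters of 19 of the 72 genes (26.4%), CCGGAAG (ETS) in 18 (25.0%) and AAGATGGCG (YY1) in 9 (12.5%), against 5.2%, 9.9% and 1.6% of the 27025 genes of the table. Of the 8 genes that fell with age 6 were matched: 2 hold the NRF1 letters, 1 the ETS letters and 0 the YY1 letters. The 49 matched genes with transcripts under 1000 bases hold the NRF1 letters in 26.5% and the 23 longer ones in 26.1%. Printed are the 3 of the 6 that hold any of the motifs, and Sdha, which holds the NRF1 letters 3 times and whose old controls were far apart, 5′ to 3′ on the gene's strand with the motif in capitals.
Ndufaf4 lies on the plus strand of chr4:24897833-24898132.
Ndufaf4: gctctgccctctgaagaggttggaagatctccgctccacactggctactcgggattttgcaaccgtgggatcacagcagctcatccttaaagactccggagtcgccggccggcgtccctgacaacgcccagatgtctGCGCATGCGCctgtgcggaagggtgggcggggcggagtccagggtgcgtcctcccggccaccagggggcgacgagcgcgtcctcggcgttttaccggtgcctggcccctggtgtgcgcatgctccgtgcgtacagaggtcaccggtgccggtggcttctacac
Uqcrc1 lies on the plus strand of chr9:108936398-108936697.
Uqcrc1: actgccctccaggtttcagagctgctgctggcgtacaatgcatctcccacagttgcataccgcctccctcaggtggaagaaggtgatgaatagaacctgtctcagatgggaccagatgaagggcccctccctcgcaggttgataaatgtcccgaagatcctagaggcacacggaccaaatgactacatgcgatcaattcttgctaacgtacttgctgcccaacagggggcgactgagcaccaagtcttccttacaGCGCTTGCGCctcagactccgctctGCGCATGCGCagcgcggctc
Ndufaf1 lies on the minus strand of chr2:119662785-119663084.
Ndufaf1: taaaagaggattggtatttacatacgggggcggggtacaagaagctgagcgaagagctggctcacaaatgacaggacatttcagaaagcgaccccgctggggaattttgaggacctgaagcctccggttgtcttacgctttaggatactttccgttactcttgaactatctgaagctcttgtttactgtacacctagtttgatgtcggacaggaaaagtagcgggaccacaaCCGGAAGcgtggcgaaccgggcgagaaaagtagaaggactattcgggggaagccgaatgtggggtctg
Sdha lies on the minus strand of chr13:74350191-74350490.
Sdha: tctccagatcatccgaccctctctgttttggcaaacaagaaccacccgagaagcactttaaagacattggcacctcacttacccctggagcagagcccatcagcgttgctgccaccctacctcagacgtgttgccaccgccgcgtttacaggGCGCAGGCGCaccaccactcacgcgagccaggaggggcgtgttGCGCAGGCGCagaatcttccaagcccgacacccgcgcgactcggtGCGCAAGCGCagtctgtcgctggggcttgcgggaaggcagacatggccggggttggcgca
A match describes these letters and not a bound site.

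Per kilobase of transcript, the levels of the members spanned a wide range. Cox4i1 (520 CPM per kilobase), Ndufa4 (512), Atp5g3 (441) and Atp5b (438) were highest over the 10 livers, and Ndufa4l2 (1.74) and Cox7a1 (3.88) were the lowest of their classes. The assembly factors Ndufaf1 and Ndufaf4 had 21.6 and 8.82 CPM per kilobase. The highest of complex I was Ndufa6 with 287 CPM per kilobase, of complex II Sdhb with 146 and of complex III Uqcr11 with 343.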

How the data were processed

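Poly(A) RNA of 10 mouse livers was sequenced as paired reads of 75 bases. The deposited values are raw counts per gene symbol. Per the submitters' processing notes, FastQC 0.11.8, Trim Galore 0.4.4, STAR 2.5.3a, HOMER and mm10 were used; strand and the treatment of reads with several matches are not given in the sources used here, so genes with near-identical copies or antisense partners are uncertain. Groups follow the labels, and replicate numbers follow accession order.

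Counts were fitted with edgeR 4.0.16 (R 4.3.3; filterByExpr, TMM, quasi-likelihood) in 1 fit of 3 groups, or of 4 groups for the guides, with p-values adjusted over all genes tested. The SE is the absolute log2 change divided by the square root of F. DESeq2 1.42.0, limma 3.58.1, other scalings and filters, a GC and length correction (mgcv 1.9.3) and leaving out each liver were alternatives. The fit was tested on simulated data. Total counts of 15821198 to 21710228 per liver limit precision less than the spread between livers.

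Members, lists and tests were chosen with earlier results of these data known. Named were genes past the threshold, otherwise the smallest p of a class, and fixed core subunits. Lengths and coordinates come from GENCODE M21 (GRCm38), in which 98.4% of symbols were found. The result of 1 gene is not reported here.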

Additional observations from a re-analysis of the deposited data

How the results depend on the processing

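The number of members lower with age was 8, and it was 14 with DESeq2 (11.6% of all genes), 3 with upper quartile factors (5.2%), 3 with no low count filter (5.23%), 1 with only the groups compared (3.22%), 25 after the GC and length correction (16.8%), 5 with the guides apart (7.85%), 1 with total counts only (2.55%) and 0 when an absolute log2 change of 1 was also required. Leaving out 1 liver gave 1 to 39 lower, where 1.08% to 17.0% of all genes were. It gave 0 to 2 higher, where 1.72% to 20.8% were, and total counts only gave 2 higher (27.8%). Between old knockout and young livers, 2 were lower (4.97% of all genes). The number lower was 10 with DESeq2 (9.66%), only the groups compared (14.1%) or the GC and length correction (11.4%). With only the groups compared 1 was higher (16.9%). The number lower was 1 with limma voom (3.91%), no low count filter (3.14%), the guides apart (4.32%) or subunits only. It was 0 with upper quartile factors (3.09%), total counts only (1.82%) or an absolute log2 change of 1. Total counts only gave 3 higher, where 3332 of the 13909 genes tested were. Leaving out 1 liver gave 0 to 2 lower, where 0.226% to 5.64% of all genes were. Total counts only, chosen after seeing the data, turned the log2 change with age to 0.02 for Cox5a, 0.01 for Sdhb, 0.04 for Uqcrfs1, 0.13 for Cox4i1, 0.00 for Cox6a1, 0.11 for Cox7a2 and 0.15 for Cox8a. Without old control replicate 3 it was 0.01 for Cox4i1 and 0.00 for Cox8a, and over all livers left out it ran from -0.52 to 0.01 and from -0.39 to 0.00. The cause was not tested. Counts of members called for the knockout and for the guides were 0 in every setting run. No paired analysis was possible because the replicate numbers follow accession order and pair no livers across groups.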

Other observations

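Each member's log2 CPM was correlated over the 10 livers with the mean log2 CPM of the members, as a description with no test, since the livers share groups and scaling. The median Pearson's r was 0.88, and 56 of the 87 genes had r over 0.8. The 7 members below 0 included Sdha, Atp5b, Ndufs1 and Atp5a1. Of 8142 other genes with a mean of at least 10 CPM, the nearest to the members' mean were Cox19 (r = 0.974), Mettl26 (0.971), Mrps24 (0.968), Mrpl48 (0.968) and Pam16 (0.962). Cox19, a complex IV assembly factor, had 57.2, 63.8 and 61.1 CPM in the young livers, 64.6, 41.4 and 29.1 CPM in the old controls, 51.5 and 62.3 CPM with guide g2 and 57.8 and 57.2 CPM with guide g4.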
